A study of Mus musculus with 8 samples.

Results

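The mitotic programme is the set of genes whose products carry a cell from the end of DNA replication through chromosome segregation to cell division. Here 40 such genes, chosen by name from their known roles, were followed in mouse bone marrow cells, out of 53647 gene identifiers in the count files. All 40 were found and all 40 passed the filter on low counts. They fall into 7 functional groups, namely 8 cyclins, kinases and phosphatases of mitotic entry, 10 kinetochore and spindle checkpoint genes, 4 genes of the chromosomal passenger complex, 6 spindle genes, 6 cytokinesis genes, 4 genes of chromosome structure and 2 partners of the anaphase-promoting complex (APC/C), Cdc20 and Ube2c. RNA was sequenced from sorted cells labelled lineage-negative and CD127-positive, 4 libraries labelled wild type (genotype Trerf1 +/+; WT1 to WT4) and 4 labelled knockout (genotype spelled Tref1 -/- in the labels and called a Trerf1 knockout in the series title; KO1 to KO4). CD127, the receptor subunit through which lymphoid progenitors and innate lymphoid cells sense interleukin 7, is the product of Il7r, which was at 269, 303, 374 and 348 CPM in WT1 to WT4 and 304, 347, 415 and 349 CPM in KO1 to KO4 (CPM are counts set to a common library size, here with TMM scaling). No further allele, agent, age or strain is named by the labels, nor the exons that the knockout removes. The labels do not say whether libraries came from separate animals, so p-values measure only the spread between these libraries.

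Cyclin B with its kinase Cdk1 drives entry into mitosis, the kinetochore attaches chromosomes to the spindle, and the spindle checkpoint holds back the APC/C until all are attached. The APC/C then destroys cyclin B and securin, and chromosomes part. Most of these genes are transcribed late in the cell cycle, under the cell cycle homology region, a promoter element read by the MuvB complexes that silence the genes in resting cells and switch them on with B-Myb and FoxM1, and under CCAAT boxes bound by NF-Y. In marrow, expression of these genes marks the dividing progenitors. Trerf1 is a subunit of the mitotic deacetylase complex MiDAC, a histone deacetylase complex named for its detection in cells arrested in mitosis. The comparison asks which of the 40 genes differ between knockout and wild type.

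Most promoters of these genes with a window hold the letters of both elements. The choice of genes did not use the letters, but genes of these roles are known to be under these elements. The shares below thus describe the genes and are not independent support. Promoter windows of 300 bases, from 250 before to 50 after the transcription start, were taken from RefSeq (build GRCm38.p6) and held 33 of the 40 genes. The letters searched, on both strands, were TTTGAA or TTCGAA for the cell cycle homology region, CCAAT for the NF-Y box, and GGCGGGAA, TTTGGCGC or TTTCCCGC for E2F sites. Matches of different elements can share letters at their edges, and the E2F strings overlap each other. The homology region letters were in 27 of the 33 windows (81.8%), against 21.7% of all 27025 genes with a window and 16.8% of the 10748 of them tested here. CCAAT was in 25 of 33 (75.8%), against 41.1% of all genes and 42.2% of those tested. Both together were in 23 of 33 (69.7%), against 8.61% of all genes and 6.84% of those tested. No window of the 33 held the E2F letters, found for 3.69% of all genes and 6.87% of those tested. Matches to the homology region lay near the start, with a median distance of -1.5 bases and 26 genes having one no more than 100 bases before the start. In all 23 genes with both, a CCAAT match lay upstream of a homology region match, with a median shortest distance of 32 bases. A match is a description of letters and not a measured binding site. The 120 bases before the start are shown for 8 genes that the results below turn on, 5′ to 3′ on the gene's strand, with both elements in capitals (ATTGG and TTCAAA are the same letters on the other strand).
Ccnb1, chr13:100786487-100786606, minus strand: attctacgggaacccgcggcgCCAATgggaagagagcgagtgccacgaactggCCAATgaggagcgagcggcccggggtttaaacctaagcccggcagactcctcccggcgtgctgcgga
Cdk1, chr10:69352913-69353032, minus strand: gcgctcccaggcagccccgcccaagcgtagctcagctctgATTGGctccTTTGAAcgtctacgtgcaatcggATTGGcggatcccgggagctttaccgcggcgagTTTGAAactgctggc
Cdc20, chr4:118437344-118437463, minus strand: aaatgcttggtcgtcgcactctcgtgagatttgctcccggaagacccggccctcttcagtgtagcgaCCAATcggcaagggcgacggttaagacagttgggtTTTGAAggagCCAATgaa
Ube2c, chr2:164769809-164769928, plus strand: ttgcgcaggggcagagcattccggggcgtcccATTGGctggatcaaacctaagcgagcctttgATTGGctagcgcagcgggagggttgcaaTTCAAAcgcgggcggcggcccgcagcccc
Bub3, chr7:131560250-131560369, plus strand: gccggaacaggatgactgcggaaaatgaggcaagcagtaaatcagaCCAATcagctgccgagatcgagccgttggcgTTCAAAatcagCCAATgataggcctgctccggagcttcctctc
Kif11, chr19:37376262-37376381, plus strand: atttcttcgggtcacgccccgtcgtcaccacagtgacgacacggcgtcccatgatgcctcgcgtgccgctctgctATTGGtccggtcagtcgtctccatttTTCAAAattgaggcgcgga
Top2a, chr11:99024190-99024309, minus strand: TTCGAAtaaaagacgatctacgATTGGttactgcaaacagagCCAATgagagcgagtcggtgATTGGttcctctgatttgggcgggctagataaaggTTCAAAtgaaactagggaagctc
Mki67, chr7:135716380-135716499, minus strand: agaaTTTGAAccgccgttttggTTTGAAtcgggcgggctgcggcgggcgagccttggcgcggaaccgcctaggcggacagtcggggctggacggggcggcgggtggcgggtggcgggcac
In this stretch Cdk1 and Top2a carry both elements more than once, Cdc20, Ube2c, Bub3 and Kif11 carry at least 1 CCAAT match within the 120 bases and 1 homology region match. Ccnb1 has CCAAT matches and no match to the homology letters, and Mki67 has the reverse, with its CCAAT matches farther upstream.

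**Figure D1:**
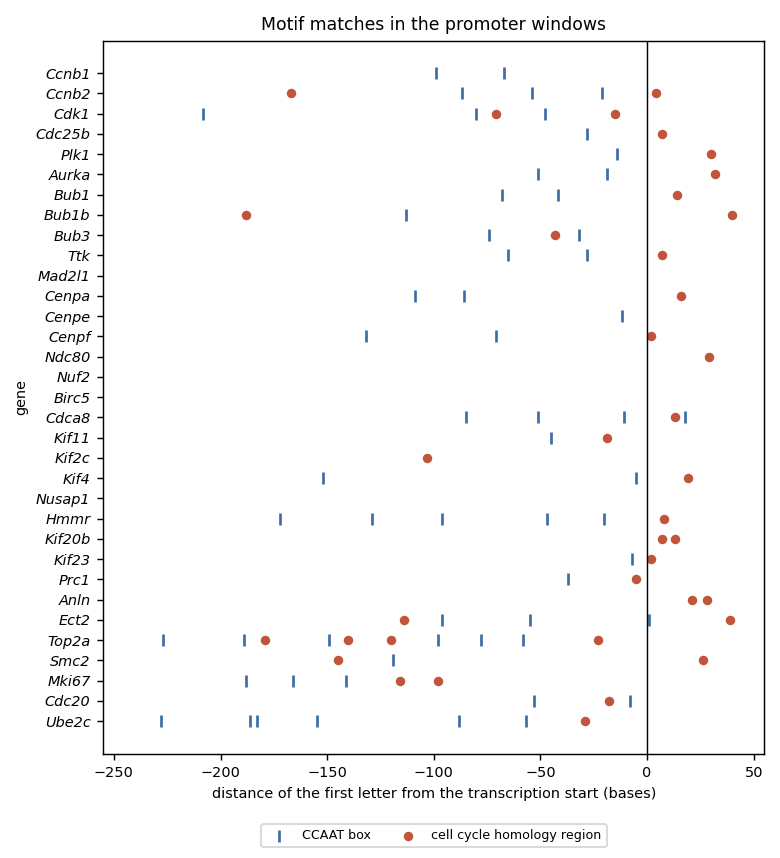
Matches to the CCAAT box (bars) and the cell cycle homology region (points) in the promoter windows of the 33 genes with one. The horizontal axis is the distance of the first letter from the transcription start in bases and each row is a gene (first listed window); homology region matches gather around the start, with CCAAT matches upstream of them.

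Total counts ran from 31109744 to 36184497 in 5 libraries and from 63498254 to 73414626 in WT2, WT4 and KO4, and every one of the 40 genes had at least 1155 counts in each library. The counts summed to 3.665 to 4.003 times RSEM's expected counts. The reason was not tested, and 1 count cannot be taken as 1 independent molecule. The targeted gene, Trerf1, was at 29.0, 32.1, 27.1 and 22.3 CPM in WT1 to WT4 and 13.4, 12.8, 12.1 and 22.1 CPM in KO1 to KO4. It was low in 3 knockout libraries and at the level of WT4 in the library labelled KO4, so directions that rest on that library rest on its label. The log2 fold change was -0.87 ± 0.20 (SE), and the exact permutation p (two-sided, 70 possible assignments) was 0.0286, its smallest attainable value. Xist was above 440 CPM in WT1, WT4, KO1, KO3 and KO4 and below 1 CPM in the other libraries, so both groups mix libraries with and without it. Across all genes, edgeR called 0 of 16352 (0%) at an adjusted p under 0.05. Trerf1 itself was not called, with an adjusted p of 0.999 (unadjusted 0.00151) in the edgeR test. A gene that did not pass is thus not shown to be unchanged.

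None of the 40 genes passed the test between knockout and wild type, yet with TMM scaling 39 of 40 had a higher estimate in knockout. With edgeR's quasi-likelihood F test, adjusted over all 16352 genes by Benjamini-Hochberg, 0 of 40 had an adjusted p under 0.05 (each was 0.999), 0 of 40 had an unadjusted p under 0.05, where 1.97% of all genes had one (1.04% higher in knockout), and in 0 of 40 did the groups not overlap, where 0.74% of all genes were higher and 0.544% lower in knockout without overlap. DESeq2 and limma-voom also called 0 of 40, with 0 and 2 (Ccnb1 and Bub3) at an unadjusted p under 0.05, where 1.88% and 5.45% of all genes had one. An estimate above 0 was found for 51.7% of all genes, and for 59.5% of the 5625 genes with a mean CPM in the range of the 40. The count depended on the scaling. With library size alone in place of TMM it was 35 of 40 (44.8% of all genes), and with RLE factors 38 of 40 (50.4%). The median log2 fold change of the 40 was 0.14, against 0.01 over all genes and 0.03 over those 5625, and single estimates ran from -0.02 for Mki67 to 0.27 for Ccnb1. The estimate exceeded its own SE in 23 genes and 2 SE in 0. The difference of the group means was larger than both groups' SD in 2 genes, Bub3 and Smc4. Members were not chosen on these values, but earlier results of these data were known when they were chosen, and the direction is not independent support. A shift of this kind in sorted bulk cells cannot tell more cells in G2 and mitosis from more RNA of these genes per cell.

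**Figure D2:**
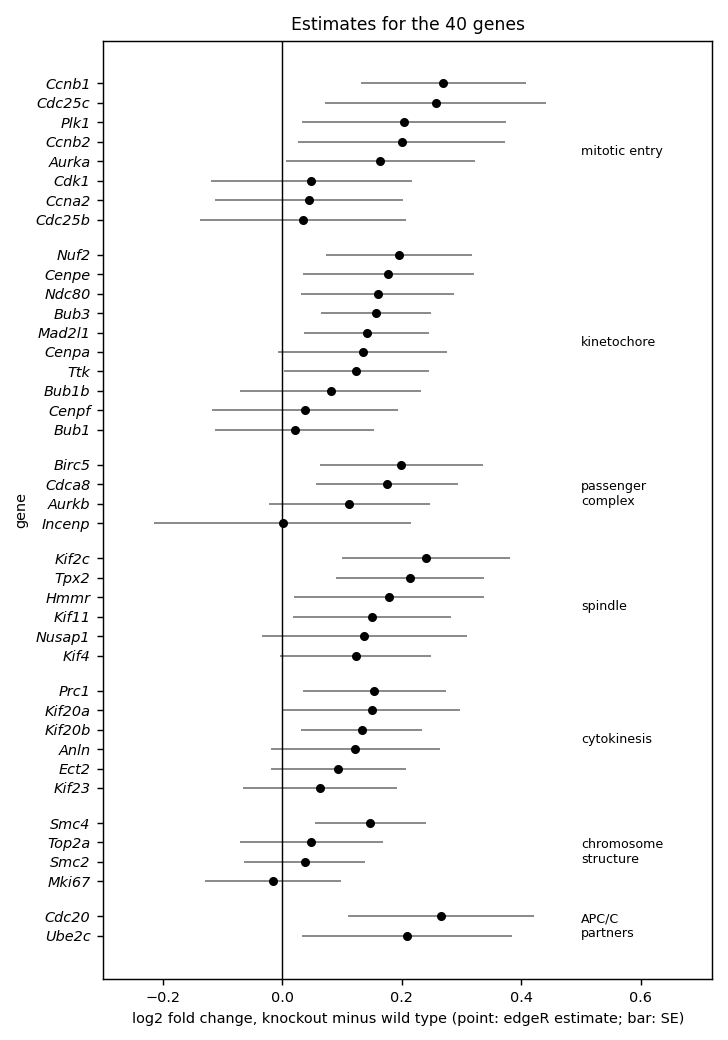
Fitted log2 fold change of knockout minus wild type (points, edgeR) with its SE (bars) for each of the 40 genes, ordered by functional group. All but Mki67 have an estimate above 0, and none passed the test.

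The 40 genes varied together from library to library, and the libraries of 1 group differed from each other more than the groups did. Each gene's log2 CPM was set against its own mean over the 8 libraries, and the median over the 40 genes was -0.02, 0.08, -0.08 and -0.26, for WT1 to WT4, against 0.00, 0.32, 0.17 and -0.23, for KO1 to KO4. KO2 and KO3 were thus the highest libraries and WT4 and KO4 the lowest. KO2 was the highest of the 8 libraries in 33 of 40 genes, KO3 and WT2 in 3 each and WT3 in 1. WT4 was the lowest in 19 and KO4 in 16, and in 29 genes these were the lowest pair. KO2 was above every wild-type library in 35 genes, KO3 in 23, KO1 in 7 and the library labelled KO4 in 1, Smc4. The library labelled KO4 was below the wild-type mean in 38 genes. The group means of the library medians were 0.07 ± 0.24 in knockout and -0.07 ± 0.14 in wild type (SD, n = 4 each), a difference smaller than either SD with libraries taken as unpaired. Each knockout library was above the wild-type library of its own number, though only just for KO1 and KO4. The labels do not say that the numbers pair libraries.

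**Figure D3:**
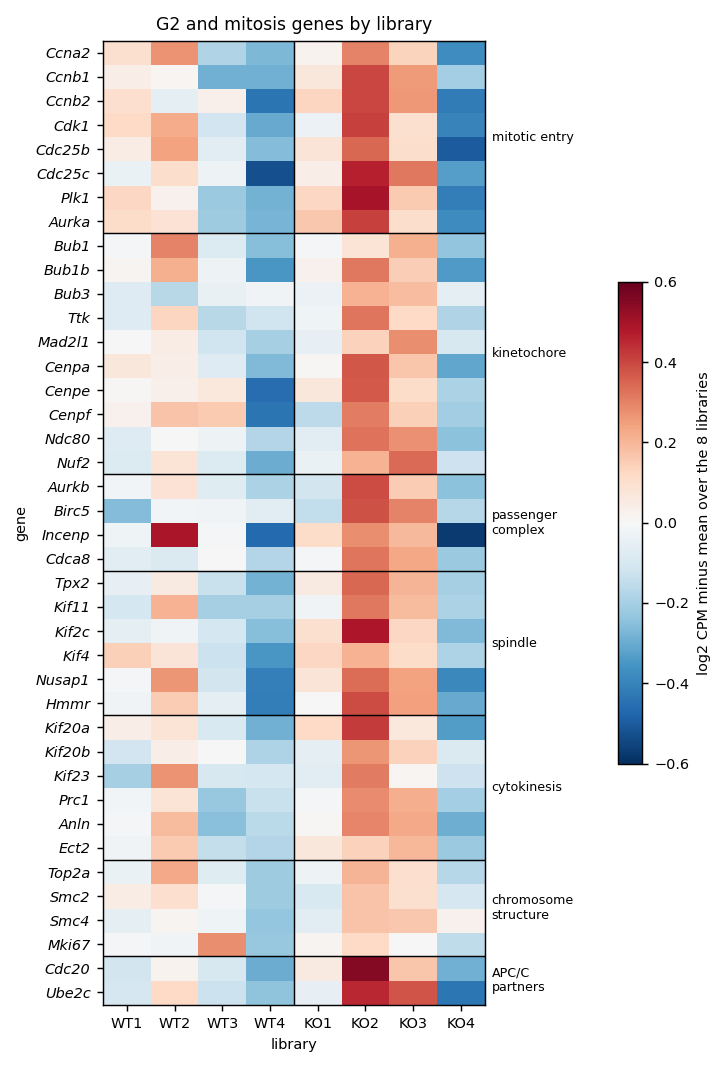
Log2 CPM of each of the 40 genes minus its mean over the 8 libraries (colour), with genes in rows by functional group and libraries in columns. Nearly every row is high in KO2 and KO3 and low in WT4 and KO4, with values from -0.58 to 0.55.

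The median estimate depended on 3 libraries. Without KO2 it was 0.06, with 28 of 40 genes higher in knockout, and without WT4 it was 0.09, with 30 of 40 higher. Without the library labelled KO4 it was 0.23, all 40 estimates were above 0, and 11 genes had an unadjusted p under 0.05 (5.9% of all genes did), none with an adjusted p under 0.05. With WT4 and KO4 left out together the median was 0.18, with 38 of 40 higher and 5 genes (Ccnb1, Ccnb2, Tpx2, Kif2c and Cdc20) at an unadjusted p under 0.05, where 8.75% of all genes were.

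All 8 genes of mitotic entry had estimates above 0 (median log2 fold change 0.18). A value in parentheses after a gene's libraries is its log2 fold change ± SE, and an unadjusted p is from the same edgeR fit. Ccnb1 encodes cyclin B1, the activating partner of Cdk1 (ENSMUSG00000041431.17, chromosome 13, 100915158 to 100923078, minus strand, GRCm39 coordinates of the count files). It was at 164, 161, 130.2 and 130.3 CPM in WT1 to WT4 and 167, 210.3, 190.0 and 138 CPM in KO1 to KO4. KO1, KO2 and KO3 were above every wild-type library and the library labelled KO4 lay between wild-type libraries, so the groups overlapped. The means were 176 ± 31.0 CPM over the knockout libraries against 146 ± 18.5 CPM over the wild-type ones (SD, n = 4 each), with a log2 fold change of 0.27 ± 0.14 (SE) and the smallest unadjusted p of the 40 genes, 0.0770. Ccnb2, the second B-type cyclin, was at 290.0, 259, 276 and 199 CPM in WT1 to WT4 and 295, 356, 323 and 202 CPM in KO1 to KO4 (0.20 ± 0.17), with KO4 and WT4 at the bottom. Cdc25c, a phosphatase that activates Cdk1, was at 35.3, 39.0, 35.4 and 25.1 CPM in WT1 to WT4 and 37.2, 50.05, 45.1 and 28.8 CPM in KO1 to KO4 and had a log2 fold change of 0.26 ± 0.18. KO2 and KO3 were above every wild-type library, and WT4 and KO4 were the lowest pair. Plk1 and Aurka, kinases that promote entry and build the spindle poles, had 0.20 ± 0.17 and 0.16 ± 0.16. The other members of this group were nearer to 0: Cdk1 had 0.05 ± 0.17, Ccna2, the S and G2 phase cyclin, 0.04 ± 0.16, and Cdc25b, another Cdk1 phosphatase, 0.03 ± 0.17. Cyclin B genes and the kinase that they activate thus had estimates of 0.27, 0.20 and 0.05, and the differences between them were not tested.

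Cdc20 and Ube2c, which work with the APC/C, both had estimates above the median of the 40. Cdc20, which switches on the APC/C once the checkpoint is met, was at 167, 182, 168 and 146 CPM in WT1 to WT4 and 186, 263, 202 and 147 CPM in KO1 to KO4. KO2 stood far above all others, KO1 and KO3 were above every wild-type library, and the library labelled KO4 lay beside WT4. The means were 199.6 ± 48.2 CPM over the knockout libraries against 166 ± 14.9 CPM over the wild-type ones (SD, n = 4 each) and the log2 fold change 0.27 ± 0.16 (SE; unadjusted p 0.117). Ube2c, the APC/C's ubiquitin-conjugating enzyme, was at 195, 226.8, 191 and 177 CPM in WT1 to WT4 and 201, 285, 271 and 155 CPM in KO1 to KO4 (0.21 ± 0.18). It was highest in KO2 and KO3 and lowest in the library labelled KO4, below every wild-type library. Over libraries, the median of the pair ran from -0.36 in KO4 to 0.50 in KO2. That of the 8 genes of mitotic entry was nearly as wide, from -0.39 in KO4 to 0.41 in KO2. For the 4 genes of chromosome structure, the narrowest group, it ran from -0.22 in WT4 to 0.17 in KO2.

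All 10 kinetochore and checkpoint genes had estimates above 0 (median log2 fold change 0.14). Bub3, a checkpoint protein that docks Bub1 and BubR1 on kinetochores, was at 325, 306, 333 and 338 CPM in WT1 to WT4 and 335, 396, 389.6 and 330.2 CPM in KO1 to KO4. Wild-type libraries lay close together, KO2 and KO3 stood above them, and KO1 and the library labelled KO4 lay among them. The means were 363 ± 34.9 CPM over the knockout libraries against 325 ± 14.0 CPM over the wild-type ones (SD, n = 4 each), the log2 fold change was 0.16 ± 0.09 and the unadjusted p was 0.119. Ttk, the checkpoint kinase Mps1, was at 48.1, 55.5, 45.2 and 46.8 CPM in WT1 to WT4 and 49.9, 63.5, 55.1 and 44.8 CPM in KO1 to KO4 (0.12 ± 0.12). Of the knockout libraries KO2 alone was above every wild-type library, and the library labelled KO4 was the lowest of all. Mad2l1, the checkpoint effector Mad2, had a log2 fold change of 0.14 ± 0.10, and Bub1 and Bub1b, the checkpoint kinase and BubR1, had 0.02 ± 0.13 and 0.08 ± 0.15. Of the outer kinetochore, Ndc80 and Nuf2, partners in the complex that grips microtubules, had 0.16 ± 0.13 and 0.20 ± 0.12. The kinetochore motor gene Cenpe had 0.18 ± 0.14 and Cenpf, which binds the outer kinetochore, 0.04 ± 0.16. Cenpa, the centromeric histone H3 variant, had 0.13 ± 0.14.

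The 4 genes of the chromosomal passenger complex, which corrects wrong attachments, had estimates from 0.00 to 0.20 (median 0.14). Differences between these genes were not tested. Birc5, encoding survivin, was at 183, 217, 216 and 210.2 CPM in WT1 to WT4 and 198, 286, 270.3 and 195 CPM in KO1 to KO4 (0.20 ± 0.14). KO2 and KO3 were above every wild-type library and KO1 and KO4 were not. Cdca8, encoding borealin, was at 209, 206, 218 and 193 CPM in WT1 to WT4 and 217, 272, 256 and 187 CPM in KO1 to KO4 (0.18 ± 0.12). Here too KO2 and KO3 exceeded every wild-type library, and the library labelled KO4 was the lowest. Aurkb, the complex's kinase, had 0.11 ± 0.13. Incenp, the scaffold, was at 169, 241, 170.2 and 124 CPM in WT1 to WT4 and 185, 208, 196 and 115 CPM in KO1 to KO4, with a log2 fold change of 0.00 ± 0.22, the largest SE of the 40 genes. Its highest library was WT2 and its lowest KO4, a ratio of 2.09 between them where the median gene had 1.56, and its sign turned under several scalings.

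The 6 spindle genes all had estimates above 0 (median 0.16). Tpx2, which nucleates microtubules and activates Aurora A, was at 213, 229, 201 and 181 CPM in WT1 to WT4 and 228, 279.7, 254 and 192 CPM in KO1 to KO4. KO2 and KO3 were above every wild-type library, KO1 was level with WT2, and the library labelled KO4 was below 3 wild-type libraries. The means were 238 ± 37.5 CPM over the knockout libraries against 206 ± 20.2 CPM over the wild-type ones (SD, n = 4 each), with a log2 fold change of 0.21 ± 0.12 and an unadjusted p of 0.115. Kif11, the motor that pushes spindle poles apart, was at 335, 417, 315 and 315 CPM in WT1 to WT4 and 356, 450.0, 411 and 316 CPM in KO1 to KO4 (0.15 ± 0.13), and WT2 exceeded KO3. Kif4, a chromosome-bound kinesin gene on the X chromosome, was at 87.7, 83.7, 72.5 and 62.3 CPM in WT1 to WT4 and 86.4, 91.7, 85.5 and 69.8 CPM in KO1 to KO4 (0.12 ± 0.13), with KO1 and KO3 below WT1. Kif2c, a microtubule depolymerase, had 0.24 ± 0.14, Hmmr, a spindle pole protein, 0.18 ± 0.16 and Nusap1, a microtubule bundler, 0.14 ± 0.17.

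The 6 cytokinesis genes had estimates from 0.06 to 0.15 (median 0.13). Kif20b was at 112, 124, 121 and 106 CPM in WT1 to WT4 and 116, 145, 133 and 114 CPM in KO1 to KO4 (0.13 ± 0.10; unadjusted p 0.217). It is a kinesin that acts at the midbody, and KO2 and KO3 were above every wild-type library. Kif23, the kinesin of the centralspindlin complex, was at 169, 233, 182 and 180.2 CPM in WT1 to WT4 and 185, 240.4, 196 and 178 CPM in KO1 to KO4 (0.06 ± 0.13), and WT2 was the second highest library. Anln, the actin-binding protein anillin of the cleavage furrow, was at 85.5, 97.9, 72.1 and 76.8 CPM in WT1 to WT4 and 86.3, 105, 100.4 and 70.02 CPM in KO1 to KO4 (0.12 ± 0.14). KO2 and KO3 were the highest libraries and the library labelled KO4 the lowest. Prc1, which bundles the central spindle, had 0.15 ± 0.12, Kif20a, which brings the passenger complex there, 0.15 ± 0.15 and Ect2, the exchange factor that activates RhoA, 0.09 ± 0.11.

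Genes of chromosome structure lay nearest to 0 (median 0.04). Smc4, a condensin subunit, was at 299, 315, 306 and 265 CPM in WT1 to WT4 and 298, 350.1, 348 and 317 CPM in KO1 to KO4. All knockout libraries but KO1 were above every wild-type library, with means of 328 ± 25.4 CPM over the knockout libraries against 296 ± 21.6 CPM over the wild-type ones (SD, n = 4 each) and a log2 fold change of 0.15 ± 0.09 (unadjusted p 0.140). Its condensin partner Smc2 was at 212, 221, 204 and 177 CPM in WT1 to WT4 and 193, 232, 219.8 and 192 CPM in KO1 to KO4 (0.04 ± 0.10). KO2 was the highest library, WT4 the lowest, and KO1 lay below 3 wild-type libraries. Top2a, the topoisomerase that untangles sister chromatids, was at 890.0, 1072, 869 and 789 CPM in WT1 to WT4 and 896, 1055, 979.9 and 812 CPM in KO1 to KO4 (0.05 ± 0.12), and WT2 was the highest library. Mki67, the coat protein of mitotic chromosomes used as the Ki-67 proliferation marker, was the 1 gene with a lower estimate, at 253, 252, 310.0 and 218 CPM in WT1 to WT4 and 258, 278, 256 and 230.2 CPM in KO1 to KO4 (-0.02 ± 0.11). Its highest library was WT3, and without WT3 the estimate was 0.08. The group median turned to -0.02 without KO2 and likewise to -0.02 without WT4.

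**Figure D4:**
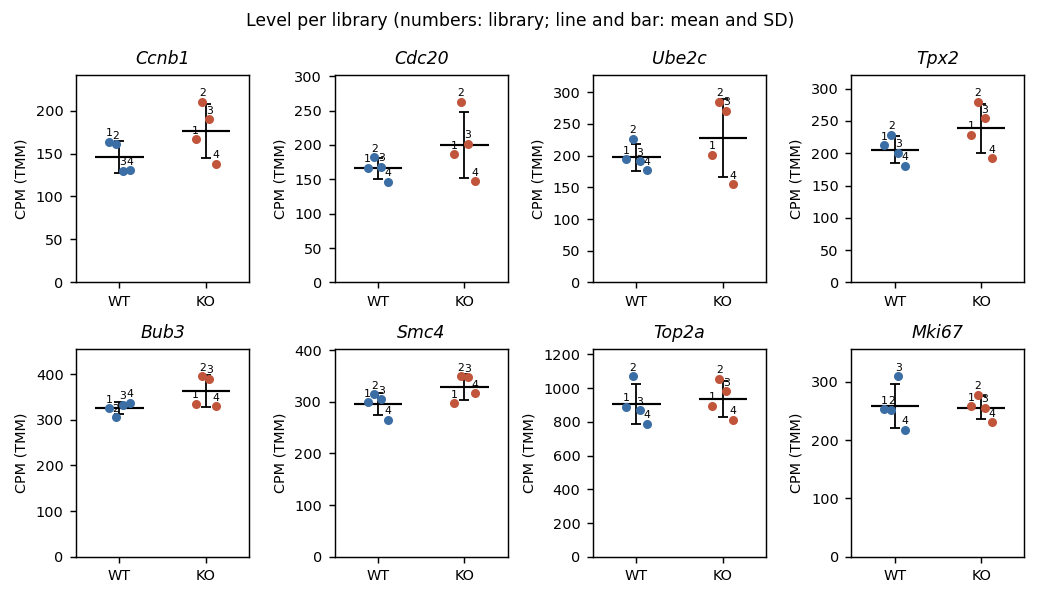
TMM-scaled CPM of 8 of the genes in each library (points, numbered by library), with group mean (line) and SD (bar), n = 4 each. In Ccnb1, Cdc20, Ube2c and Tpx2 the library labelled KO4 lies among or below the wild-type libraries, and in every panel the groups overlap.

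Levels of different genes were compared per transcript length, as TPM, the length-scaled share of transcripts estimated by RSEM, in wild type. Top2a stood highest at 315 ± 50.4 TPM (SD, n = 4), followed by Birc5 at 289 ± 28.6 and Ube2c at 286 ± 41.4 TPM, 3 levels within 1 SD of each other. Cenpe was lowest at 17.7 ± 3.36 TPM. Of partners in 1 complex, the condensin pair Smc4 and Smc2 stood at 228 ± 29.1 and 205 ± 37.6 TPM and the pair Nuf2 and Ndc80 at 61.9 ± 10.3 and 55.1 ± 3.81 TPM, in both cases within the larger SD. Library by library, Smc4 was above Smc2 in all 4 wild-type libraries, and Nuf2 was above Ndc80 in all but WT4. In the checkpoint, Bub3 was at 212 ± 4.80 TPM, above Bub1b at 62.9 ± 12.8 and Bub1 at 35.4 ± 7.54 TPM in all 4 wild-type libraries. In the passenger complex the order was Birc5, Cdca8 at 173 ± 14.3, Aurkb at 137 ± 15.1 and Incenp at 119 ± 32.7 TPM, the last 2 within the larger SD. Cdk1, at 169 ± 34.4 TPM, lay between Ccnb2 at 229 ± 39.9 and Ccnb1 at 123 ± 21.4 TPM. Mki67, although widely used as a marker, ranked 33 of 40 at 35.4 ± 5.85 TPM. Counts per RSEM expected count were 4.34 in the median gene of the 40 and 4.32 over 13647 genes (5th to 95th percentile 0.311 to 4.92). Of the 40 they were lowest for Kif20a (2.81), Ccnb1 (2.99), Prc1 (3.10) and Ccna2 (3.36). Whether the counts of these genes are less certain for it was not tested. With RSEM expected counts the Ccnb1 log2 fold change was 0.24 and the median of the 40 was 0.14. In TPM the knockout mean was below the wild-type mean for Top2a, Smc2, Cdk1, Kif23, Ccna2, Cenpf, Mki67, Bub1 and Cdc25b. It was above it for the rest of the 40.

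Other genes of mitosis were listed by role, and none passed the test. Of 30 other kinetochore and centromere genes, the estimate was higher in knockout for 29 (median 0.12), with the smallest p in Cenpi, of the inner kinetochore, at 77.0 ± 6.56 CPM over the knockout libraries against 67.6 ± 4.31 CPM over the wild-type ones (SD, n = 4 each). Of 22 other spindle, centrosome and midbody genes, 19 were higher (median 0.10). The smallest p among them was that of Cep55, which recruits the abscission machinery, at 56.7, 67.9, 68.9 and 59.2 CPM in WT1 to WT4 and 71.9, 86.7, 82.3 and 64.5 CPM in KO1 to KO4 (0.27 ± 0.12; unadjusted p 0.0386). Of 15 genes of the G2 checkpoint and mitotic entry, 13 were higher (median 0.11), with the smallest p in Cks1b, a Cdk1-binding subunit, at 249 ± 30.9 CPM over the knockout libraries against 219.6 ± 11.7 CPM over the wild-type ones (SD, n = 4 each). For the degradation and cohesion machinery, 11 of 17 APC/C genes and 10 of 16 genes of condensin, cohesin and separase were higher (medians 0.06 and 0.08). Differences between lists were not tested. The smallest p of the APC/C list was that of Cdc26, a subunit, at 77.8, 69.5, 84.5 and 88.8 CPM in WT1 to WT4 and 85.6, 104, 102 and 102 CPM in KO1 to KO4 (0.30 ± 0.10; unadjusted p 0.0157), where all but KO1 exceeded every wild-type library. The spindle and APC/C lists each held 1 gene with an unadjusted p under 0.05, where 1.97% of all genes had one. In 1 APC/C gene, Cdc23, the groups did not overlap, where 0.74% of all genes were higher in knockout without overlap. Of the condensin, cohesin and separase list, the smallest p was that of Sgo1, which guards centromeric cohesin, at 69.7 ± 13.2 CPM over the knockout libraries against 60.1 ± 4.81 CPM over the wild-type ones (SD, n = 4 each).

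Transcription factors and partners listed for the programme, many of them of the E2F and Rb families, mostly had estimates below 0. Of 19 (1 listed gene, Lin54, was not matched), 5 had higher and 14 lower estimates (median -0.05), with the smallest p in E2f4, a repressive E2F, at 30.5, 26.4, 28.5 and 27.9 CPM in WT1 to WT4 and 28.1, 24.7, 24.6 and 24.0 CPM in KO1 to KO4 (-0.16 ± 0.10). Foxm1 and Mybl2, the activators of these genes, named after their values were seen, had 0.11 ± 0.13 and -0.12 ± 0.19. The matched MuvB subunit genes Lin9, Lin37, Lin52 and Rbbp4 had -0.01 ± 0.11, 0.16 ± 0.11, 0.10 ± 0.10 and 0.01 ± 0.11. The factors that read the homology region thus lay on both sides of 0, and most lower estimates were of E2F, Tfdp and Rb family genes. Among 30 genes of S phase, which copy the DNA beforehand, 25 were higher (median log2 fold change 0.06). The smallest p was that of Gins1, a subunit of the replicative helicase, at 35.5, 37.1, 36.3 and 36.0 CPM in WT1 to WT4 and 37.1, 43.3, 45.4 and 40.6 CPM in KO1 to KO4 (0.20 ± 0.10), where KO1 was only just above WT2 and the groups did not overlap. Gins1 was the 1 gene of the 30 without overlap, where 0.74% of all genes were higher in knockout without overlap. Of the MiDAC genes apart from Trerf1, 1 of 4 was higher. Mideas, the scaffold related to Trerf1, was at 20.2, 27.4, 14.8 and 16.9 CPM in WT1 to WT4 and 17.3, 15.9, 12.1 and 13.7 CPM in KO1 to KO4 (-0.43 ± 0.20), and did not pass the test.

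Per library, S phase and mitosis parted in WT4 and KO4. The S phase median was -0.09, -0.01, -0.02 and -0.03, for WT1 to WT4, against -0.12, 0.13, 0.10 and 0.04, for KO1 to KO4. The mitotic median was below it by 0.23 in WT4 and by 0.27 in the library labelled KO4, and above it by 0.19 in KO2 and by 0.12 in KO1. The 30 other kinetochore genes ran from -0.10 in WT4 to 0.25 in KO2, with WT1 below KO4, whereas the median of all genes stayed between -0.0046 and 0.0242.

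**Figure D5:**
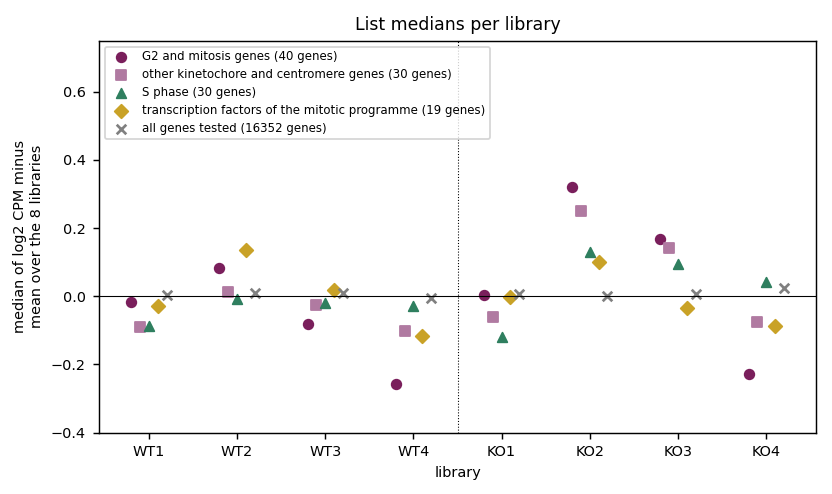
Median over each gene list of log2 CPM minus the gene's mean over the 8 libraries (vertical axis), per library (horizontal axis). The 40 genes are highest in KO2 and lowest in WT4 and KO4, where S phase genes are near 0.

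Markers of the cells in the gate varied across the same libraries. The summed level of 8 lymphoid progenitor markers was 6645, 7563, 8094 and 6826 CPM in WT1 to WT4 and 7468, 10159, 8386 and 6601 CPM in KO1 to KO4, none of the 8 being below 1 CPM on average. It was highest in KO2 and KO3, as the mitotic genes were, and lowest in KO4 with WT1 beside it. The mitotic median was instead lowest in WT4, and it was -0.08 in WT3, where this sum was high. Of them 5 had higher and 3 lower estimates in knockout. Within it Dntt, the terminal transferase of lymphoid progenitors, was at 1734, 2360.2, 2355 and 853 CPM in WT1 to WT4 and 1759.6, 3025, 1792 and 1156 CPM in KO1 to KO4, lowest in WT4 and KO4 and highest in KO2. Flt3 and Rag2 shared that order at both ends. They were highest in KO2 (1339 and 106.7 CPM) and lowest in WT4 (910 and 35.7 CPM) and KO4 (930 and 47.1 CPM). In Flt3, WT3 was close to KO4 at 935 CPM. The remaining genes of the list had other orders. Ly6d, the largest of them, was at 2856, 2993, 3878 and 4197 CPM in WT1 to WT4 and 3607, 4905, 4708 and 3661 CPM in KO1 to KO4, with WT1 the lowest. Ccr9, a homing receptor, was at 423, 376, 307 and 388 CPM in WT1 to WT4 and 433, 255, 295 and 334 CPM in KO1 to KO4, with KO2 the lowest. All genes named here from this list were named after their values were seen. The 7 plasmacytoid dendritic cell markers summed to 4525, 3527, 3400.0 and 6296 CPM in WT1 to WT4 and 4760.4, 3742, 4476 and 4614 CPM in KO1 to KO4, with WT4 the highest. Erythroid markers, 12 genes of a lineage that the lineage-negative gate should leave out, had lower estimates in all 12 and summed to 793, 290.4, 63.9 and 61.1 CPM in WT1 to WT4 and 309.7, 174, 53.5 and 53.8 CPM in KO1 to KO4, with WT1 the highest and KO3 and KO4 nearly level. The 9 pro-B markers (7 with higher estimates) summed to between 648 and 876 CPM in wild type and between 755 and 954 CPM in knockout. The 10 granulocyte and monocyte markers (8 tested, all 8 higher; Ms4a3 and Fcnb below 1 CPM on average) summed to between 459 and 532 CPM in wild type and between 460.5 and 682 CPM in knockout. The 8 T cell markers (6 higher) summed to between 446 and 511 CPM and between 501 and 609 CPM. Most of this sum was Lck, Cd4 and Lat, with means of 259, 124 and 94.8 CPM over the 8 libraries. Cd3e, Cd3g, Cd3d, Cd8a and Themis had means of 5.84 to 7.99 CPM. The 9 innate lymphoid markers (1 higher, 8 lower; Il13 and Il5 below 1 CPM on average) summed to between 232 and 515 CPM and between 146 and 315 CPM, with KO2 the lowest. Most of this sum was Gata3 and Il1rl1, with means of 212 and 56.4 CPM. In the edgeR fit, 3 innate lymphoid markers had an unadjusted p under 0.05, all lower in knockout. So did 1 pro-B, 2 granulocyte and monocyte and 1 T cell marker, all higher, and 0 of the other marker lists. Among all genes 1.97% had one, and no marker passed the test. The share of counts in TEC transcripts, unspliced loci awaiting support, was 0.117% to 0.126% in KO1 to KO3 and 0.308% in the library labelled KO4, against 0.148% to 0.269% in wild type. With this share as a covariate the median of the 40 was 0.07, with 34 of 40 higher. The part of these cell types and of this share in the mitotic result was not tested.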

How the data were processed

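RNA of 8 libraries, 4 per group by title and genotype label, was analysed. The authors deposited whole-number read counts per gene, from featureCounts 1.6.4 per the file headers, with an annotation path naming GRCm39, and RSEM expected counts and TPM per gene. The submitters' processing notes name STAR 2.6.0a, Picard 2.19, RSEM 1.3.1 and build mm10. The header shows no strand or multi-mapping option. Symbols were matched for 52093 of 53647 identifiers. The count model was edgeR 4.0.16 under R 4.3.3 (filterByExpr, TMM, quasi-likelihood F test without covariate, Benjamini-Hochberg adjustment, threshold 0.05); log2 CPM used a prior count of 3, CPM errors are SD and log2 fold change errors SE from that fit. Depth is given in the report. The edgeR fit, and no other step, was tested on simulated data. Alternatives were RLE factors, library size alone, other filters, DESeq2 1.42.0, limma-voom (limma 3.58.1), RSEM expected counts rounded to whole numbers, a replicate block, Xist or TEC share as covariate, and libraries left out. Members, lists and the alternatives on TEC share and on leaving out WT4 with KO4 were chosen with earlier results of these data known. All members may be named; per-library values were printed, per functional group, for the smallest p and the highest and lowest mean CPM, and for members lower in knockout, and of each related list the smallest p.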

Additional observations from a re-analysis of the deposited data

Results flagged for a closer look

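Groups of 4 libraries were checked for 1 library far from the other 3 (Dixon's ratio past its 95% critical value), in 98 sets of values covering the 40 genes, their medians and Trerf1. Chance flags about 1 in 20, and 2 stood out. Cenpe was at 83.8 CPM in WT4, below the 116 to 120.3 CPM of the other wild-type libraries. Trerf1 was at 22.1 CPM in the library labelled KO4, above the 12.1 to 13.4 CPM of the other knockout libraries.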

How the results depend on the processing

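No gene among the 40 passed an adjusted p of 0.05 under any alternative run, nor of 0.1 in the edgeR fit on all libraries. The median log2 fold change of the 40 was between 0.07 (TEC share as covariate) and 0.18 (Xist as covariate) in the alternatives with all libraries, and from 0.06 (without KO2) to 0.23 (without KO4) with 1 library left out; 28 to 40 genes were higher in knockout in the latter. Leaving out WT4 and KO4 together, 12 genes of the whole table passed, none of the 40, and Trerf1 had -1.20 (adjusted p 0.0473). With 1 library left out, no gene of the table passed. The sign of Incenp turned with RLE factors (-0.0023), library size alone (-0.0404), no filter (-0.0118), a mean CPM of at least 1 (-0.0146), RSEM expected counts (-0.0045) and TEC share as covariate (-0.13). That of Mki67 turned with RSEM expected counts (0.0015) and Xist as covariate (0.0418). With 1 library left out, ranges that cross 0 were -0.13 to 0.18 for Incenp, -0.0391 to 0.17 for Kif23, -0.0876 to 0.0790 for Mki67, -0.0224 to 0.0771 for Smc2, -0.0147 to 0.13 for Top2a and -0.0165 to 0.10 for the median of chromosome structure genes. The cause was not tested. The labels number libraries 1 to 4 in both groups. Deviations of same-numbered libraries correlated across genes at 0.362, 0.309, -0.031 and 0.119, against at most -0.108, -0.033, 0.159 and 0.204 with other numbers. Numbers 1 and 2 thus matched best with their own number and 3 and 4 did not, and the labels name nothing that a number stands for, so the samples were not taken as paired. With the replicate block the median of the 40 was 0.13, 39 were higher, 0 passed and 4 had an unadjusted p under 0.05 (Ccnb1, Cdc25c, Tpx2 and Cdc20), where 3.88% of all genes had one. Each of the 40 genes had at least 1155 counts in every library.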
